A study of Mus musculus with 10 samples.

Results

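5-azacytidine (5-AZA) is a cytosine analog that is built into nucleic acids and traps DNA methyltransferases, so that copied DNA loses methyl groups at CG dinucleotides. Here its effect on mRNA was measured in differentiated primary mouse keratinocytes. The comparison holds 6 of the 10 arrays of the series, namely the 2 titled as differentiated keratinocytes with 5-AZA and the 4 titled as differentiated keratinocytes. The 4 other arrays, 2 of undifferentiated keratinocytes and 2 of differentiated keratinocytes that express A-C/EBP, a dominant negative of the C/EBP transcription factors, entered the fit for the spread between arrays. Values of the undifferentiated arrays are given for some genes below as a reference level, and those of all 4 for the melanocyte markers. All cells were cultured from epidermis of FVB mice, per the study's methods newborn and wild type apart from the A-C/EBP cells. Differentiation was induced by 2 days in 0.4 mM calcium, against 0.05 mM in undifferentiated cultures. The methods place 5-AZA at 1 µM in the medium 6 hours after seeding, and the labels place it after 1 day in culture. The sources used here do not say whether the control cultures received a vehicle or whether the arrays of a group came from separate cultures, so p-values measure the spread between these arrays, which may be technical. The study used the drug to ask whether DNA methylation matters for the genes that are switched on during differentiation.

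DNA methylation at CG dinucleotides keeps many germ cell genes, imprinted alleles and repeats silent in somatic cells, and the methyltransferase DNMT1 copies the pattern at each division. Keratinocytes that receive calcium leave the basal state, join through desmosomes and build the cornified envelope, a protein shell made of involucrin, loricrin and small proline-rich proteins that is cross-linked beneath the membrane. Methylation itself was not measured in these samples, and the values below are mRNA levels only.

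The mRNA levels were the deposited log2 values of the Affymetrix arrays, averaged over the probe sets of each gene, and a difference of 1 on this scale is a doubling. In total 18193 genes were tested. The median probe set on the 10 arrays lay between 4.64 and 4.78. The beta-actin 3′ minus 5′ difference, a measure of RNA and labelling quality, was 0.68 in 5-AZA replicate 2 and 0.09 to 0.37 in the other 9 arrays. Differentiated replicate 2 had the lowest maximum, 13.67. Across genes the 2 5-AZA arrays correlated with r = 0.990, less than 5-AZA replicate 1 with differentiated replicate 4 (r = 0.9945) or 5-AZA replicate 2 with differentiated replicate 3 (r = 0.992). The keratinocyte keratins were present in every array: Krt5 stood at 13.43 and 12.75 with 5-AZA and at 12.88 to 13.42 in the controls, and Krt14 at 12.01 and 11.96 against 11.29 to 12.12. In such bulk RNA, fewer cells of a type and less RNA per cell cannot be told apart.

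With 5-AZA, 31 genes rose and 21 fell at an adjusted p under 0.05 (limma, moderated two-sided test with Benjamini-Hochberg adjustment over all genes). These are 0.170% and 0.115% of the genes tested. The genes that rose included the cell cycle factor Mybl2, the germ cell genes Rhox5 and Tcfl5, the growth factor Tgfb3 and the calcium-binding protein S100a4. The genes that fell included the cornified envelope gene Ivl, the cytokine receptor Il18r1, the growth factor carrier Fgfbp1 and the sterol enzyme Ch25h. The 6 arrays of every one of these 52 genes did not overlap between the groups. Rises ran from 0.66 to 2.03 and falls from -0.72 to -2.04, with 13 rises and 16 falls beyond 1.

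Without the test, 344 genes were higher by over 0.5 in the mean of the 5-AZA arrays (1.89%) and 380 were lower (2.09%). This is the size of change that the study's methods used. Beyond 1 there were 38 higher and 75 lower. With each array centred on its median the counts beyond 0.5 were 270 and 457. Both 5-AZA arrays lay above all 4 controls for 2045 genes (11.2%) and below all 4 for 937 (5.15%). The difference was above 0 for 60.5% of genes, and its median over all genes was 0.04. Without differentiated replicate 2 this median was 0.01. The counts that passed the test depended on single arrays. They were 7 rises and 9 falls without 5-AZA replicate 1, and 1 and 1 without 5-AZA replicate 2. Leaving out differentiated replicates 1, 2 and 4 gave 5 and 2, 7 and 3, and 11 and 4, and leaving out either undifferentiated array gave 19 and 12. Without differentiated replicate 3 the counts changed less, to 26 and 21. Mybl2 passed without each of the 6 compared arrays. Il18r1, Fgfbp1, St6gal1 and F2rl2 passed in 5 of those 6 fits, each being lost without 5-AZA replicate 2. Of the 52 calls, 22 passed in 1 of the 6 fits and 14 in none of them, among them Tgfb3, Bmp6, Rgs10, Lims2, Hexa, Glipr1, Acod1, Phactr1, Reep6, Col4a5, Bex1, St8sia6 and P2rx2. Against differentiated replicates 3 and 4 alone, no gene passed in limma, and 887 had an unadjusted p under 0.05.

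**Figure D1:**
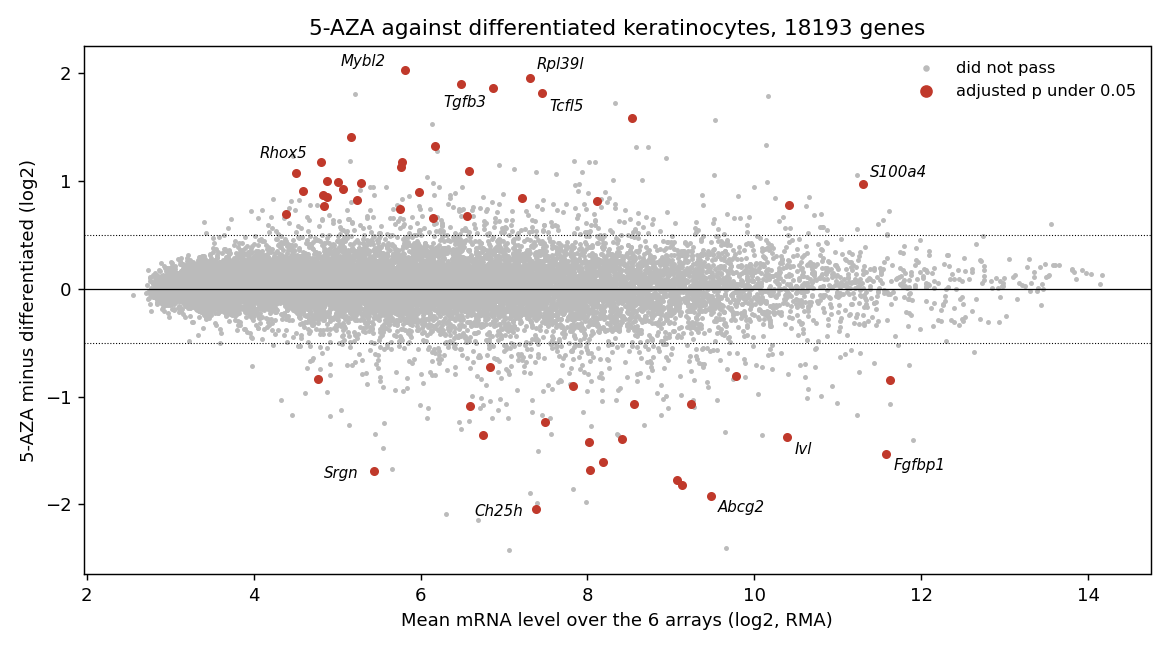
Each point is a gene, with its mean mRNA level over the 6 compared arrays (log2, RMA) on the horizontal axis and the difference of 5-AZA minus differentiated keratinocytes (log2) on the vertical axis; red points passed the test and dotted lines mark 0.5 in both directions. The 31 genes that rose and the 21 that fell lie beyond the dotted lines, among many grey points of the same size that did not pass.

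Start regions of 5 of these genes are shown because the drug acts on CG dinucleotides: 4 that rose and one, Ivl, that fell. Each line gives the 250 bases before the RefSeq start of the gene (build GRCm38.p6), 5′ to 3′ on the gene's strand, with CG dinucleotides in capitals. Rhox5 lies at chrX:37754358-37754607 on the plus strand and holds 4 CG, Tcfl5 at chr2:180642692-180642941 on the minus strand with 22, Rpl39l at chr16:10169978-10170227 on the plus strand with 12, Mybl2 at chr2:163054385-163054634 on the plus strand with 23, and Ivl at chr3:92573736-92573985 on the minus strand with 0.
Rhox5: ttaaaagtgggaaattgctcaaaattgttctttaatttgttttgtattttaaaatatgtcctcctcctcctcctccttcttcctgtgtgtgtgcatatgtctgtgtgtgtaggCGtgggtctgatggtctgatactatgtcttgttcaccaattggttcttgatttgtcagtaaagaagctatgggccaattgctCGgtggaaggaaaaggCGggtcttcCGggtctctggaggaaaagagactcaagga
Tcfl5: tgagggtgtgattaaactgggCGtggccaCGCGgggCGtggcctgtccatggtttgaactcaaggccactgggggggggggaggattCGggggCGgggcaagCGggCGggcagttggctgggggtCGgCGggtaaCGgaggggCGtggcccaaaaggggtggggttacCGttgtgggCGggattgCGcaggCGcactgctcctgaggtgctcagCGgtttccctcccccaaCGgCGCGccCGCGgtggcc
Rpl39l: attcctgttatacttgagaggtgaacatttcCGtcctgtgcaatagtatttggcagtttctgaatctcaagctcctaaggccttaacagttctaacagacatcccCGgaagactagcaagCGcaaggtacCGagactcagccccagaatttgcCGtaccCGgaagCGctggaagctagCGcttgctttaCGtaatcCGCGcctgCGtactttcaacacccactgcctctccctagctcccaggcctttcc
Mybl2: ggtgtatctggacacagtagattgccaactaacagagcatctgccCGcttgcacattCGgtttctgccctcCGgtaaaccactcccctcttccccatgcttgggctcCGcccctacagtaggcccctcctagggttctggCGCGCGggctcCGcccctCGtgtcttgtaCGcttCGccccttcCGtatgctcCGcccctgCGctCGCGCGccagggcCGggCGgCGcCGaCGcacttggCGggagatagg
Ivl: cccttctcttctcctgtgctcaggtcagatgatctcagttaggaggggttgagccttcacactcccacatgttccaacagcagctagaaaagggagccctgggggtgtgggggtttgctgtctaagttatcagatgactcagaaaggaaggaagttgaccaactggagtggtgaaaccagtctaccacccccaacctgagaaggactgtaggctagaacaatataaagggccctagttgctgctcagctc

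The start regions of genes that rose thus ranged from CG-poor to CG-rich. Windows were given for 26 of the 31 genes that rose, 19 of the 21 that fell and 14452 of all 18193. Their median CG count was 8 for genes that rose, 7 for genes that fell and 14 for all genes. At least 10 CG were found in 50.0% of windows of genes that rose, 36.8% of genes that fell and 62.6% of all. For genes with several listed starts the highest count was taken. The motifs of the factors the study followed were searched as exact letters on both strands. The AP-1 motif (TGACTCA or TGAGTCA) was in the windows of 2 genes that rose (7.69%), Cybrd1 and F2rl2, in 4 that fell (21.1%), Erc2, Ivl, Olr1 and Slc6a14, and in 4.73% of all windows. The CREB motif (TGACGTCA) was in 2 that fell (10.5%), Abcg2 and Ch25h, in 0 that rose and in 2.50% of all. The C/EBP motif (TTGCGCAA) was in 0 of both groups and in 0.235% of all windows. These counts describe the letters in the windows and were not tested.

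Among transcription factors, Mybl2, which encodes B-MYB, a factor that switches on genes of mitosis, had the largest rise. Its level was 7.29 and 7.04 in 5-AZA replicates 1 and 2, and 5.18, 5.13, 4.95 and 5.29 in differentiated replicates 1 to 4. Both treated arrays lay far above all controls, and also above the 6.73 and 6.09 of undifferentiated cells. The difference was 2.03 ± 0.17 (SE, n = 2 and 4; adjusted p = 0.0061). Its pair of probe sets differed in size, with differences of 2.62 and 1.43.

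Rhox5 is an X-linked homeobox gene of testis and epididymis, and one of 37 germline genes listed because many of them are held silent by DNA methylation. It stood at 5.86 and 5.31 with 5-AZA, against 4.33, 4.40, 4.69 and 4.23 in the controls. All 4 controls were below the median probe set of their arrays, so a level above background was not shown there, while both treated arrays were above it. The difference was 1.18 ± 0.17 (adjusted p = 0.0325). Tcfl5, a basic helix-loop-helix factor of male germ cells, was 8.68 and 8.66 with 5-AZA and 6.86, 6.54, 6.84 and 7.15 without. The 2 treated values were nearly the same and all lay above the controls (1.82 ± 0.21, adjusted p = 0.0167). Its single probe set is of a kind that can match several transcripts.

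Rpl39l, a copy of the ribosomal protein gene Rpl39 that is most abundant in testis, rose by a similar amount. It was 8.48 and 8.73 with 5-AZA and 6.19, 6.45, 7.09 and 6.89 in the controls (1.95 ± 0.29, adjusted p = 0.0351). The controls spread over nearly 1 unit and still stayed below both treated arrays. Rpl39 itself was at 6.68 and 6.92 against 6.63 to 6.68, a difference of 0.15 that did not pass (adjusted p = 0.704). Gm9222, for which the annotation gives no role, was 7.68 and 8.54 against 6.46, 6.23, 6.10 and 6.21, with its 2 treated arrays 0.86 apart. Its one probe set can also match several transcripts (1.86 ± 0.21, adjusted p = 0.0136).

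No other gene of the germline list passed the test. Of the 37 measured, 1 rose and 0 fell, 24 had a difference above 0, beside 60.5% of all genes, and 9 lay above all controls without overlap, beside 11.2% of all genes. Their median was 0.05, against 0.04 over all genes, and 30 of the 37 were below the array median on all 6 arrays. Tex19.1, a germ cell gene that restrains retrotransposons, was 5.41 and 5.46 with 5-AZA and 4.79 to 5.16 in the controls (0.47 ± 0.13, adjusted p = 0.242). Tdrd9, a helicase of the piRNA pathway, was 4.74 and 4.65 against 4.29 to 4.63 (0.26 ± 0.13, adjusted p = 0.605). Both showed treated arrays just above the controls.

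Imprinted genes and interferon response genes, which in other cells can be released by demethylating drugs, had 0 members past the test in either direction. The 34 imprinted genes had a median of 0.02, with 17 above and 17 below 0. Of them 8 lay above all controls and 2 below, beside 11.2% and 5.15% of all genes. On all 6 arrays 12 of the 34 were below the array median. Mest, which is read from the paternal allele, was 4.80 and 4.86 with 5-AZA and 6.15, 5.28, 5.49 and 5.51 without (-0.78 ± 0.24, adjusted p = 0.309). Slc22a18, a maternally expressed transporter, had values of 5.90 and 5.93 against 5.28 to 5.76 (0.41 ± 0.13, adjusted p = 0.321). The 40 interferon response genes had a median of 0.04, which was -0.08 without 5-AZA replicate 1 and 0.24 without replicate 2, and 1 was higher and 2 lower by over 0.5. Ccl5, a chemokine of that response, was 4.83 and 4.70 against 5.46 to 5.70 (-0.79 ± 0.19, adjusted p = 0.162).

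The genes that rose also held 2 ligands, a receptor and a regulator of G proteins. Tgfb3, a TGF-beta ligand, was 8.22 and 7.28 with 5-AZA and 6.13, 5.55, 5.35 and 6.37 in the controls (1.90 ± 0.31, adjusted p = 0.0438). The treated arrays differed by almost 1 unit, and its call was lost when any 1 of the 6 arrays was left out. Bmp6, a bone morphogenetic protein also made by epidermal cells, was 6.10 and 5.79 against 5.24, 4.63, 5.05 and 4.93 (0.98 ± 0.16, adjusted p = 0.0472). F2rl2, the protease-activated receptor PAR3, was tighter, at 5.21 and 5.22 against 4.02, 4.16, 4.33 and 4.07 (1.07 ± 0.10, adjusted p = 0.0082). All 4 controls of F2rl2 were below their array medians, and its probe sets differed by 1.88 and 0.26. Rgs10, which speeds GTP hydrolysis by G proteins, rose by 0.68 ± 0.10, from 6.31 to 6.35 in the controls to 6.94 and 7.08.

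Wfdc18, a small secreted protein of the whey acidic protein type, was 9.56 and 9.62 with 5-AZA and 7.94, 7.60, 8.41 and 8.09 without (1.58 ± 0.21, adjusted p = 0.0272). In undifferentiated cells it was 5.73 and 6.18, so its level with 5-AZA was the highest of the 3 groups. Wfdc18 has a single probe set, of a kind that can match several transcripts. Car6, a secreted carbonic anhydrase, was 7.23 and 7.39 against 6.03 to 6.43 (1.09), and Scgb2b27, a secretoglobin, 5.98 and 6.24 against 4.37 to 5.08 (1.41). Crispld2, a secreted cysteine-rich protein, was 6.80 and 6.31 against 5.19 to 5.66 (1.17). Ceacam1, an adhesion molecule, was 5.75 and 5.60 against 4.59 to 4.88 (0.99 ± 0.11, adjusted p = 0.0124). Its 8 probe sets gave differences from 0.13 to 1.79, and 5 of them can match several transcripts, so related Ceacam genes may contribute. For Ceacam1 and for Scgb2b27, 2 of the 4 controls were below the array median.

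S100a4, an EF-hand calcium-binding protein linked to cell movement, was among the genes with a high signal, at 12.01 and 11.90 with 5-AZA and 10.85, 10.95, 10.96 and 11.15 without. Both arrays were above all controls by more than the controls differed among themselves (0.97 ± 0.13, adjusted p = 0.0278). Undifferentiated cells had 10.40 and 10.35. Cotl1, an F-actin binding protein, rose by 0.84, Lims2, a partner of integrin-linked kinase, by 0.90, and Phactr1, a phosphatase and actin regulator, by 0.69. For Phactr1 the brightest probe set gave 0.19, and for Cotl1 it gave 0.42. The other probe sets of Cotl1 can match several transcripts. All 4 controls and 1 of the 2 treated arrays of Phactr1 were below the array median.

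Gpx2, a glutathione peroxidase of epithelia, was 7.08 and 7.04 with 5-AZA and 5.34, 6.11, 5.89 and 5.59 without (1.32 ± 0.19, adjusted p = 0.0306). The treated pair was closer together than the controls. It was the single call among 22 NRF2 and glutathione genes, whose median was 0.00. St6gal1, a sialyltransferase, was 5.61 and 5.77 against 4.82, 4.73, 4.70 and 4.82 (0.92 ± 0.10, adjusted p = 0.0094). Hexa, a lysosomal hexosaminidase subunit, was 8.64 and 8.67 against 7.63 to 7.998 (0.82), and Gde1, a glycerophosphodiesterase, 10.78 and 11.07 against 10.03 to 10.28 (0.77). Rises were also measured for the adenylate kinase Ak7 (1.13), the ferric reductase Cybrd1 (0.90), the acyl-CoA synthetase Acsm3 (0.87), the nucleobase transporter Slc43a3 (0.85), the itaconate-forming enzyme Acod1 (0.77) and the phosphatase Ppm1h (0.74). The controls of Cybrd1 and Acsm3 were all below the array median, as were 3 of the 4 controls of Slc43a3 and of Acod1. The probe sets of Ppm1h gave 1.12 and 0.35. The last 3 genes that rose were Apol7a, of the apolipoprotein L family (1.00), Glipr1 (0.82) and 2510009E07Rik (0.66). For Apol7a 3 of the 4 controls were below the array median, and the probe sets of Glipr1 disagreed, at 1.61 and 0.04.

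**Figure D2:**
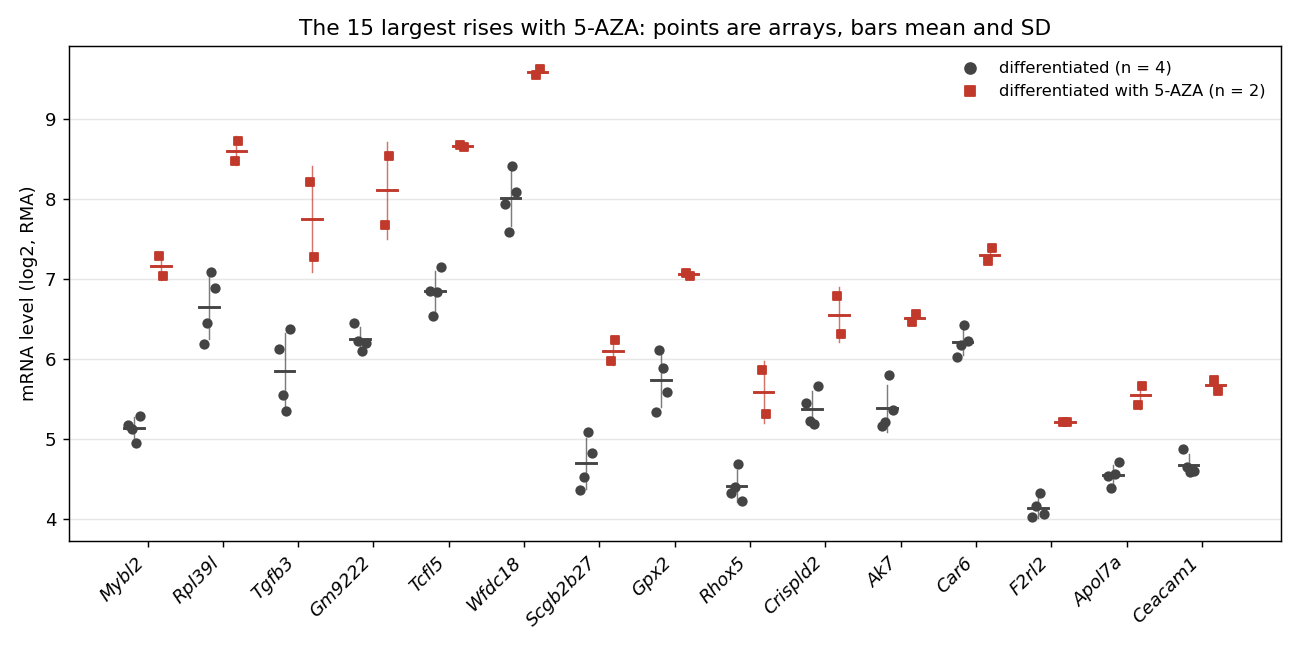
mRNA levels (log2, RMA) of the 15 genes with the largest rises, with black circles for the 4 differentiated arrays, red squares for the 2 arrays with 5-AZA, horizontal bars for means and vertical bars for 1 SD. In every gene both red squares lie above all black circles, with the widest gap for Mybl2 (7.29 and 7.04 against at most 5.29).

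Among the genes that fell, Ivl was the only call of the cornified envelope list. It encodes involucrin, an early scaffold of that envelope. Its level was 9.50 and 9.45 with 5-AZA and 11.11, 10.78, 10.72 and 10.79 in the controls (-1.38 ± 0.17, adjusted p = 0.024). The treated arrays lay below all controls and below the 9.72 and 10.38 of undifferentiated cells. Both of its probe sets were lower, by -1.48 and -1.28.

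Other members of the cornified envelope varied between the 2 treated arrays. Of 52 genes measured, 0 rose and 1 fell, 19 were lower and 2 higher by over 0.5, and 8 lay below all controls. Over all genes these shares were 2.09%, 1.89% and 5.15%. The median was -0.25. Their mean level was 8.54 in 5-AZA replicate 1 and 9.34 in 5-AZA replicate 2, against 9.24 to 9.46 in the controls, so replicate 1 was low and replicate 2 was within the controls. Without replicate 1 the median was 0.09, and without replicate 2 it was -0.56. Sprr2f, a small proline-rich protein, was 4.77 and 6.12 with 5-AZA and 7.91, 8.35, 7.77 and 7.44 without (-2.42 ± 0.45, adjusted p = 0.0706). The late cornified envelope genes Lce1m and Lce1h showed the same order, at 4.50 and 5.34 against 6.73 to 7.39 (-2.09, adjusted p = 0.0967) and at 10.50 and 11.33 against 11.80 to 12.20 (-1.07, adjusted p = 0.139). Lor, loricrin, was 7.05 and 8.06 against 7.84 to 8.43 and overlapped (-0.52, adjusted p = 0.70).

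The suprabasal keratins showed no called difference. Krt1 was 8.52 and 8.55 with 5-AZA and 8.38 to 9.17 in the controls (-0.26 ± 0.42, adjusted p = 0.916), and Krt10 was 7.74 and 8.62 against 7.60 to 8.10 (0.25 ± 0.41, adjusted p = 0.915). Both overlapped the controls, and the error of each exceeded its difference. Dsc1, a desmosomal cadherin of the upper epidermis, was 7.64 and 8.02 against 9.12, 8.86, 9.35 and 9.06, clear of the controls (-1.27 ± 0.37, adjusted p = 0.293). Its undifferentiated arrays, which share the estimate of the spread, were 8.33 and 9.63. Dsc2 was 9.09 and 9.17 against 9.42 to 10.12 (-0.56), and Dsc3 9.90 and 9.36 against 9.72 to 10.35 (-0.43). Among 13 desmosome genes 0 passed, 2 were lower and 1 higher by over 0.5, and Dsp, desmoplakin, had values of 12.01 and 12.09 against 11.33 to 11.99. Prr9, a proline-rich protein encoded beside the cornified envelope genes, was 7.86 and 8.47 against 8.34 to 8.63 (-0.33, adjusted p = 0.838), and the nuclease gene Dnase1l3 7.46 and 7.71 against 7.42 to 8.17 (-0.34, adjusted p = 0.837).

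Il18r1, a chain of the interleukin-18 receptor, was 7.08 and 6.74 with 5-AZA and 8.78, 8.80, 8.31 and 8.46 without (-1.68 ± 0.16, adjusted p = 0.0082). Fgfbp1, which releases stored fibroblast growth factors, was 10.68 and 10.44 against 12.46, 12.03, 11.87 and 12.00 (-1.53 ± 0.16, adjusted p = 0.0094). With 5-AZA both lay below the undifferentiated level as well, which was 7.71 and 7.51 for Il18r1 and 11.75 and 11.62 for Fgfbp1. Olr1, the oxidised lipoprotein receptor LOX-1, was 7.80 and 7.17 against 9.13, 8.62, 8.52 and 9.23 (-1.39 ± 0.23, adjusted p = 0.0489). Its undifferentiated level was lower still, 6.61 and 6.39. Upk3bl, a uroplakin-like membrane protein, was 7.97 and 7.82 against 9.40 to 10.07 (-1.77). Srgn, the core protein of the proteoglycan serglycin, was 4.25 and 4.39 against 6.23, 6.18, 6.19 and 5.43 (-1.69 ± 0.22, adjusted p = 0.0278). Both treated arrays of Srgn were below the array median.

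Ch25h, which makes 25-hydroxycholesterol, had the largest fall. It was 5.79 and 6.25 with 5-AZA and 8.19, 8.34, 7.69 and 8.01 without (-2.04 ± 0.28, adjusted p = 0.0306). The treated arrays were also below the 7.28 and 7.66 of undifferentiated cells. Abcg2, an efflux transporter, was 8.63 and 7.76 against 10.50, 10.08, 9.58 and 10.30 (-1.92 ± 0.30, adjusted p = 0.0383). Smpdl3b, a membrane phosphodiesterase, was 7.23 and 6.99 against 8.05 to 9.11 (-1.61), and Pla2g4a, the phospholipase that frees arachidonic acid, 8.03 and 7.67 against 8.64 to 9.15 (-1.06). For Abcg2 and Smpdl3b the lowest control, differentiated replicate 3, was the array nearest to the treated ones.

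The genes of cholesterol synthesis were lower as a list, although none passed the test. Of 22 measured, 21 had a difference below 0, 9 were lower and 0 higher by over 0.5, and 15 lay below all 4 controls. This stands beside 5.15% of all genes below all controls, and the median was -0.43 against 0.04 over all genes. The list median was -0.56 without 5-AZA replicate 1 and -0.33 without replicate 2. Nsdhl, a sterol dehydrogenase, was 10.14 and 9.92 with 5-AZA and 11.26, 10.81, 10.75 and 11.01 without (-0.93 ± 0.16, adjusted p = 0.0573). Insig1, a protein of sterol regulation in the endoplasmic reticulum, was 7.02 and 5.78 against 8.42, 7.73, 7.50 and 7.98 (-1.51, adjusted p = 0.125). Sc5d was 6.81 and 6.71 against 7.25 to 7.65 (-0.72, adjusted p = 0.107), and Mvd 7.66 and 7.28 against 8.08 to 8.60 (-0.79, adjusted p = 0.162). Among 29 barrier lipid genes the median was -0.01 and 0 passed. There Smpd1, acid sphingomyelinase, was 6.87 and 6.91 against 6.23 to 6.45 (0.54, adjusted p = 0.0564), and Lipk, an epidermal lipase, 4.46 and 5.00 against 5.67 to 6.21 (-1.24, adjusted p = 0.167).

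Sema3c, a secreted semaphorin, was 8.26 and 7.59 with 5-AZA and 10.22, 9.93, 9.13 and 9.70 without (-1.82 ± 0.29, adjusted p = 0.0438). It was highest in undifferentiated cells, at 10.87 and 10.74. Slc6a14, an amino acid transporter, was 8.53 and 8.54 against 9.91, 9.41, 9.51 and 9.58 (-1.07 ± 0.16, adjusted p = 0.0325), and here the undifferentiated arrays were lower, 6.42 and 6.58. Falls were also measured for Reep6, which shapes the endoplasmic reticulum (-1.42), C130073F10Rik (-1.36), the collagen IV chain Col4a5 (-1.23), the active zone protein Erc2 (-1.08), the monoamine oxidase Maoa (-0.90), Bex1 (-0.85), the sialyltransferase St8sia6 (-0.84) and the ATP-gated channel P2rx2 (-0.72). The brightest probe set of St8sia6 gave -0.13, and both of its treated arrays were below the array median. Of the 21 genes that fell, 4 lie on the X chromosome, namely Col4a5, Slc6a14, Maoa and Bex1, as do 1 of the 31 that rose, Rhox5, and 3.41% of all genes with a chromosome. None of 4 sex-linked transcripts passed the test. Xist was 6.74 and 7.67 with 5-AZA and 5.88 to 8.04 in the controls (0.24 ± 0.94), a wide spread between arrays. Uty was 4.09 and 4.05 against 4.12 to 4.80 (-0.43), below all controls, while Eif2s3y and Kdm5d overlapped them. The balance of sexes between the groups was not tested.

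**Figure D3:**
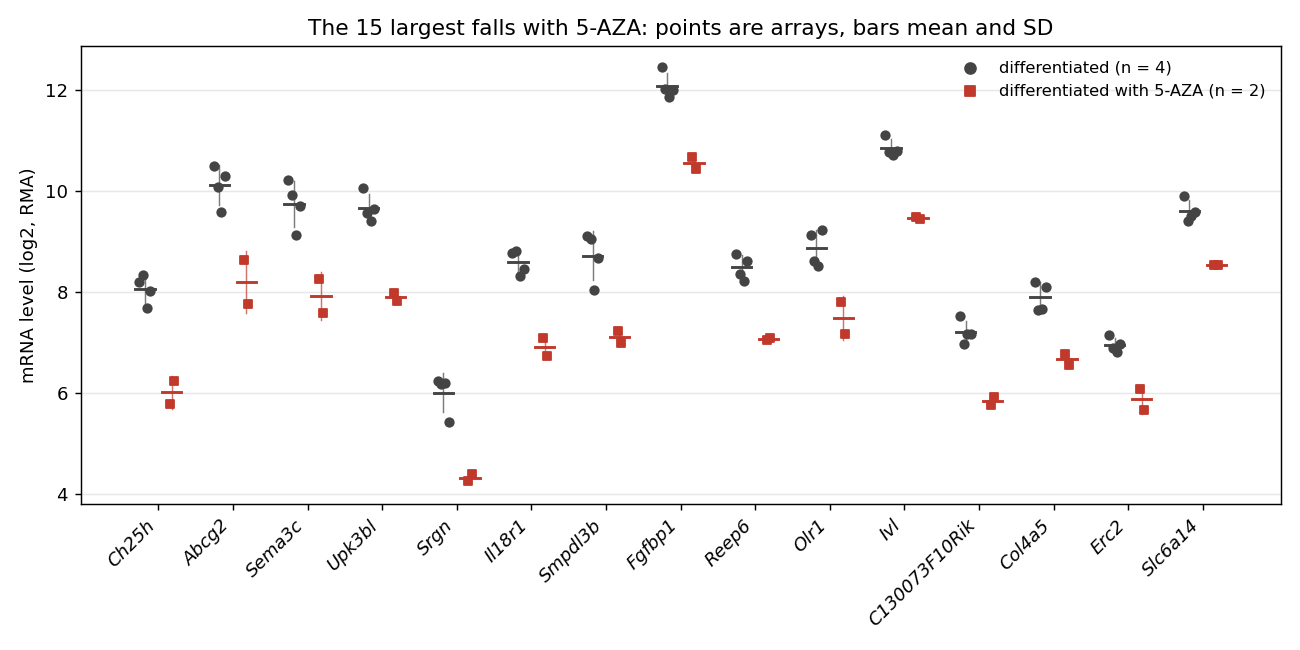
mRNA levels (log2, RMA) of the 15 genes with the largest falls, with black circles for the 4 differentiated arrays, red squares for the 2 arrays with 5-AZA, horizontal bars for means and vertical bars for 1 SD. Both red squares lie below all black circles in every gene, as for Ivl (9.50 and 9.45 against at least 10.72).

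Of 40 epidermal inflammation and antimicrobial genes, 0 passed the test. A difference below 0 was measured for 26 and above 0 for 14, up to 0.84, and 17 were lower and 1 higher by over 0.5, beside 2.09% and 1.89% of all genes, and the median was -0.31. It was -0.15 without 5-AZA replicate 1 and -0.30 without replicate 2. Of the 40, 9 lay below all controls and 2 above, beside 5.15% and 11.2% of all genes. Their mean level was 7.39 and 7.40 with 5-AZA, below the 7.60 to 7.92 of the controls. Their summed level, which the brightest genes dominate, was 15.76 and 15.98 with 5-AZA. It was not below the 15.66 to 15.85 of the controls. The 4 members with the lowest adjusted p all had a difference below 0. Ptgs2, the inducible cyclooxygenase, was 10.25 and 9.65 with 5-AZA and 11.18, 11.19, 10.54 and 10.96 without (-1.01 ± 0.24, adjusted p = 0.158). The chemokine Ccl20 was 6.83 and 6.67 against 7.66 to 8.24 (-1.20, adjusted p = 0.162). Cxcl3, a neutrophil chemokine, was 5.79 and 4.73 against 7.90, 8.78, 6.38 and 6.54 (-2.14, adjusted p = 0.288), so that controls 1 and 2 stood well above controls 3 and 4. The prostaglandin synthase Ptges was 7.79 and 7.15 against 7.92 to 8.47 (-0.70, adjusted p = 0.272).

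Apart from Mybl2, no gene of the cell division lists passed the test. Of 39 mitosis genes, Mybl2 was the 1 that rose and 0 fell. A difference below 0 was measured for 33 and above 0 for 6, while 60.5% of all genes were above 0. By over 0.5, 7 were lower and 1 higher, beside 2.09% and 1.89% of all genes, and the median was -0.23. Their mean level was 5.74 and 5.25 with 5-AZA and 5.87, 6.05, 5.17 and 5.72 in the controls, so both groups held a low array, 5-AZA replicate 2 and differentiated replicate 3. Without 5-AZA replicate 1 the median was -0.46, and without replicate 2 it was -0.02. Ect2, which drives cytokinesis, was 5.68 and 4.78 against 6.61, 6.90, 5.02 and 6.05 (-0.92, adjusted p = 0.61). Among 39 DNA replication genes 0 passed, 32 were below 0 and 7 above, and 4 were lower and 0 higher by over 0.5. The median was -0.16, or -0.29 without 5-AZA replicate 1 and -0.05 without replicate 2. Pcna, the sliding clamp, was 11.25 and 10.94 against 11.40 to 11.48 (-0.34, adjusted p = 0.341).

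The DNA methylation machinery, 25 genes, had 0 calls and a median of -0.01. Dnmt1, the maintenance methyltransferase, was 6.97 and 5.92 with 5-AZA and 7.003, 7.07, 6.06 and 7.01 without (-0.34 ± 0.32, adjusted p = 0.836). Again 5-AZA replicate 2 and differentiated replicate 3 were the low arrays, and without 5-AZA replicate 2 the difference was 0.18. Zbtb4, a reader of methylated DNA, had values of 5.86 and 5.84 against 5.38 to 5.57 (0.38, adjusted p = 0.229). The stress-induced genes Gadd45a and Gadd45b were at 7.43 and 7.76 against 8.19 to 8.79 (-0.82, adjusted p = 0.284) and at 8.23 and 8.12 against 8.54 to 9.27 (-0.82, adjusted p = 0.156). The 31 p53 targets, often followed after DNA damage, had 0 calls, and 4 members below all controls, beside 5.15% of all genes. Their median was -0.11, which was -0.19 without 5-AZA replicate 1 and -0.01 without replicate 2. Pmaip1, which encodes NOXA, was 11.15 and 10.80 against 11.52 to 11.90 (-0.69, adjusted p = 0.13), and Ddb2, a damage sensor, 6.33 and 6.34 against 6.62 to 6.95 (-0.50, adjusted p = 0.156).

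In metabolism and growth, serine synthesis genes were near the threshold. Phgdh, the first enzyme of that pathway, was 9.47 and 9.13 with 5-AZA and 9.90, 9.90, 9.90 and 9.89 without (-0.59 ± 0.10, adjusted p = 0.0564). Psat1, the next enzyme, was 9.10 and 9.27 against 9.88 to 10.28 (-0.84 ± 0.15, adjusted p = 0.0564). Both belong to a list of 25 integrated stress response genes with 0 calls and a median of -0.09. Of 30 ribosome biogenesis genes, 28 were below 0 and 10 below all controls, beside 5.15% of all genes below all controls, with a median of -0.16 that was -0.29 without 5-AZA replicate 1 and -0.03 without replicate 2. Dkc1, a core protein of RNA-modifying particles, was 7.29 and 7.20 against 7.57 to 8.08 (-0.58, adjusted p = 0.20). Gsta3, a glutathione transferase, was 4.09 and 4.40 against 4.83 to 5.49 (-0.96, adjusted p = 0.145), the opposite direction to Gpx2 in the same list. Both treated arrays of Gsta3 were below the array median.

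Some regulators and keratins had large differences that the test did not pass. Klf4, a factor of barrier formation, was 11.13 and 11.21 with 5-AZA and 10.22, 10.17, 10.70 and 10.86 without (0.68 ± 0.20, adjusted p = 0.284), clear of the controls. The immediate early gene Egr1 was 9.47 and 8.49 against 7.70 to 8.53 (1.01, adjusted p = 0.25). Krt79 was 12.11 and 10.60 against 8.84, 9.02, 9.46 and 10.96 (1.79, adjusted p = 0.353), and differentiated replicate 4 lay among the treated arrays. Krt19, a keratin of simple epithelia, was 6.50 and 5.59 against 8.56, 8.87, 6.69 and 7.63 (-1.89, adjusted p = 0.293), and Krt23 6.37 and 7.13 against 5.71 to 6.03 (0.87, adjusted p = 0.173).

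**Figure D4:**
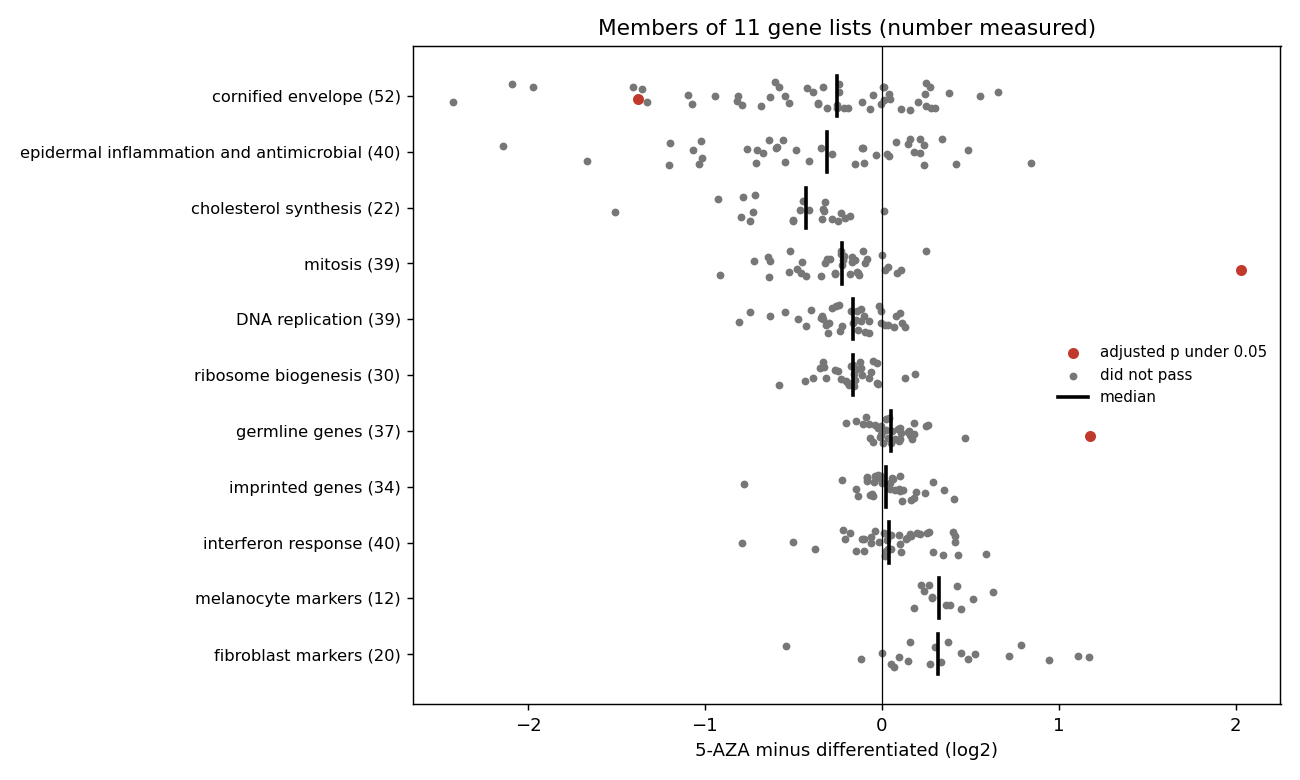
Difference of 5-AZA minus differentiated keratinocytes (log2, horizontal axis) for each measured member of 11 gene lists (rows), with members that passed the test in red, the others in grey and the list median as a black bar. Cholesterol synthesis has the lowest median (-0.43) of the lists drawn, the calls are Ivl, Mybl2 and Rhox5, and all 12 melanocyte markers lie above 0.

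Markers of melanocytes and fibroblasts were higher in the mean of the treated arrays. All 12 melanocyte markers had a difference above 0 and 8 lay above all controls, beside 60.5% and 11.2% of all genes, with a median of 0.32, although 0 passed. Their summed level was 12.68 and 12.63 with 5-AZA and 11.88 to 12.46 in the controls, and 1 of the 12 was below the array median throughout. On the arrays outside the comparison this sum was 12.4 and 12.6 in undifferentiated cells and 12.2 and 12.9 with A-C/EBP. The 5-AZA values lay within that spread. Dct was 10.97 and 10.99 against 9.96 to 10.74, Tyrp1 10.73 and 10.56 against 9.89 to 10.50, Gpnmb 7.09 and 6.80 against 6.35 to 6.67, and Kit 5.44 and 5.13 against 4.77 to 5.03. Of 20 fibroblast markers 17 were above 0 and 6 higher by over 0.5, with a median of 0.32 that was 0.10 without 5-AZA replicate 1 and 0.52 without replicate 2. Their summed level was 12.36 and 11.80 with 5-AZA and 11.02 to 11.81 in the controls, and 3 of the 20 were below the array median throughout. Col6a3 was 9.15 and 8.46 against 7.36, 7.54, 7.18 and 8.46, Thy1 7.29 and 6.60 against 5.81 to 6.51, and Vim 10.82 and 10.44 against 9.01 to 10.10. Col1a1 was 8.36 and 7.40 against 6.70 to 8.22, and Col1a2 6.71 and 5.85 against 5.51 to 6.83. Both of these collagen genes overlapped the controls. So did Col6a3, at 8.458 in 5-AZA replicate 2 and 8.459 in differentiated replicate 4. Differences within the fibroblast list ran from -0.54 to 1.17. Tagln, listed with muscle, was 11.47 and 10.98 against 10.12 to 10.50 (0.85, adjusted p = 0.141). The summed level of the fibroblast markers was higher in 5-AZA replicate 1 than in replicate 2. The part of other cells in the rises with 5-AZA was not tested. The 19 immune and 10 endothelial markers had medians of 0.00 and 0.05, and 10 and 7 of them were below the array median on all 6 arrays.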

How the data were processed

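RNA of 10 keratinocyte samples was hybridised to Affymetrix mouse arrays with 45101 probe sets. The authors summarised the arrays by RMA in Affymetrix Expression Console, per the submitters' processing notes, and deposited the log2 values used here. RMA corrects background, is meant to make the arrays' distributions alike and reports no detection call, so the lowest levels cannot be told from background. The deposited distributions were not fully alike. The mean over probe sets was 5.45 in differentiated replicate 2 and 5.54 to 5.55 in the other arrays. Gene symbols came from GEO's platform annotation, in which 34945 probe sets had 1 symbol, 932 several and 9211 none; 64 array controls were left out. Probe sets were averaged to 18193 genes. Groups came from the sample titles. limma 3.58.1 (R 4.3.3) fitted a mean per group to all 10 arrays and tested 5-AZA minus differentiated, with Benjamini-Hochberg adjustment over all genes, after it was tested on simulated data. The number of arrays limits the precision. Members and the 34 gene lists were chosen with earlier results of these data known. The genes named were those that passed (1 that fell is not reported here), the 15 largest rises and falls with their values by array, the 4 or fewer genes per list whose adjusted p was lowest, and genes the paper names. Genes named outside that rule were chosen after their values were seen: Dnmt1, Krt5, Krt14, Rpl39, Dct, Tyrp1, Vim, Col1a1, Col1a2 and Dsp. Start regions came from RefSeq (GRCm38.p6). Alternatives covered centring, quantile normalization, probe set choice, dim genes, an intensity trend, the replicate block, fewer control arrays, control-probe covariates and leaving out each array.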

Additional observations from a re-analysis of the deposited data

Results flagged for a closer look

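In the 4 differentiated arrays, 1 value stood far from the others for 2 of the 107 genes tested for this, and chance alone marks about 1 in 20 such groups. Srgn was 5.43 in differentiated replicate 4, against 6.18 to 6.23 in the other 3. Dnmt1 was 6.06 in differentiated replicate 3, against 7.003 to 7.07 in the others.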

How the results depend on the processing

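Over 22 refits the 52 calls kept their sign wherever the gene was measured, and how many passed varied. The genes that rose and fell numbered 13 and 11 with each array centred on its median (which moved the median of all genes by -0.05), 40 and 34 after quantile normalization, 14 and 10 in a fit of the compared groups alone, 47 and 33 with the hybridization controls as a covariate, and 10 and 4 with the beta-actin 3′ minus 5′ difference as a covariate. Against differentiated replicates 1 and 2 alone they were 7 and 10, with 658 genes higher by over 0.5, and against replicates 3 and 4 alone 0 and 0 in limma, with 887 at an unadjusted p under 0.05. The methods' t-test, which the study did not use to call single genes and which was run here gene by gene, gave 821 and 386 at an unadjusted p under 0.05 and 0 and 0 after Benjamini-Hochberg. A threshold of 1 in place of 0.5 left 38 higher and 75 lower. Leaving out single arrays gave 1 to 33 rises and 1 to 24 falls, and 258 to 649 genes higher and 286 to 885 lower by over 0.5; a lone 5-AZA array is then assumed to vary like the other groups. The beta-actin covariate and the fits without an array of another group were added after seeing the data. The cause of these shifts was not tested.

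With the replicate number as a block, 213 genes rose and 185 fell, 51 of the 52 calls among them, and 658 were higher by over 0.5. Only numbers 1 and 2 occur in both groups, so differentiated replicates 3 and 4 then add nothing to the difference. Across genes the difference of array 1 minus array 2 correlated between all 6 pairs of groups (r = 0.23 to 0.47, and 0.32 for 5-AZA and differentiated), a hint of pairing from the data. The deviations of the 2 5-AZA arrays from their mean were mirror images, so both give the same correlations with opposite signs. For 5-AZA replicate 1 these were 0.43, -0.09, -0.56 and 0.45 with the deviations of differentiated replicates 1 to 4. The 0.56 of 5-AZA replicate 2 with differentiated replicate 3 is therefore no separate observation. Nothing in the labels says what a number marks, and with 2 shared numbers the pairing could not be settled.

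Of the genes without a call, Dnmt1 turned to 0.19, Krt5 to 0.16 and Krt10 to -0.18 with the beta-actin covariate, and Krt14 to -0.054 against differentiated replicates 3 and 4. Leaving out single arrays, Dnmt1 ran from -0.86 to 0.18, Krt5 from -0.44 to 0.24, Krt14 from -0.022 to 0.26 and Krt10 from -0.19 to 0.69. Arrays without detection calls limit what can be said of genes near the array median.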
